A study of Equus asinus with 6 samples.

Results

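Autophagy and lysosome genes were measured by RNA sequencing in a back muscle, the longissimus dorsi, of 24-month-old Guangling donkeys (Equus asinus). There were 3 libraries from muscle with much intramuscular fat (IMF), called high IMF here, and 3 with little, called low IMF. All 6 libraries share the breed, the age and the muscle, and no treatment is named in the labels. Whether each library is a different animal is not stated. The p-values therefore reflect only how these libraries vary, which may be technical. The measured fat content is not given in the sources used here. Members were chosen by gene name alone: the ATG genes, the MAP1LC3 and GABARAP genes, the subunits of the vacuolar proton pump (V-ATPase, ATP6V), the cathepsins with a single letter (CTS) and the LAMP genes. The rule took 59 of the 20873 genes in the table. Of these, 52 passed the filter on low counts and entered the test, among 15933 genes tested in all.

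In autophagy, a membrane sac closes around cytoplasm, protein aggregates, glycogen or mitochondria and fuses with the lysosome, where the content is digested. The ATG proteins build the sac. Small ubiquitin-like proteins of the ATG8 family, LC3 and GABARAP, are attached to its lipids and bind cargo receptors. The V-ATPase acidifies the lysosome: its V1 sector burns ATP in the cytosol and its V0 sector carries protons through the membrane. Cathepsins are the proteases of the acid lumen, and LAMPs line the lysosomal membrane. In skeletal muscle this pathway clears worn mitochondria and supplies amino acids in fasting, and lysosomes also degrade the fat of lipid droplets.

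The libraries held 39052998 to 47494157 assigned reads, of which the members took 0.283% to 0.328%. Low IMF replicates 2 and 3 lay closer to each other than any other pair within a group: their log2 CPM differed by a root mean square of 0.21, against 0.63 to 0.84 for the other 5 pairs. Their counts still differed beyond sampling noise (chi-square of 7.73 per degree of freedom, against 197 to 570 for the other 5 pairs). That cannot show whether they come from separate animals. They were kept as 2 libraries in the main test and summed in an alternative. The fibre markers were present throughout, with 11 markers such as CKM and ACTA1 summing to 98612 to 166787 CPM (counts scaled to TMM-adjusted library totals) in the high and 133401 to 178086 CPM in the low IMF libraries. High IMF replicate 1 had the lowest fibre level and the highest level of myeloid markers. High IMF replicate 3 had the lowest fibroblast, myeloid and endothelial levels of the 6. Adipocyte markers did not follow the labels in every library. At an unadjusted p under 0.05, 3 of 10 were above in high IMF muscle, where all genes gave 4.53%. Yet the median level of these markers was lower in high IMF replicate 3 (-0.68 on the log2 scale, against the mean of 6 libraries) than in low IMF replicates 2 and 3 (0.18 and -0.07). In whole tissue, fewer cells of a type and less RNA per cell cannot be told apart.

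Which of these genes had the most RNA in whole muscle was read from the deposited FPKM, a count per transcript length and library total. It allows genes to be compared only as far as the gene models hold, and the build behind the counts is not settled. The aspartyl protease cathepsin D (CTSD) had the highest mean over the 6 libraries, 260.3 FPKM. It was followed by GABARAP (148 FPKM), GABARAPL2 (117 FPKM), the V1 stalk subunit ATP6V1G1 (111 FPKM), the proton-carrying ring subunit ATP6V0C (89.1 FPKM) and MAP1LC3A (84.7 FPKM). By role, the median over tested members was 101 FPKM for the ATG8 family, 34.7 for the LAMPs, 30.0 for V0, 12.5 for the cathepsins, 10.7 for V1 and 5.89 for the ATG proteins. Among the ATG proteins, the lipid scramblase ATG9A (33.9 FPKM) and the conjugating enzyme ATG3 (32.7 FPKM) led. ATG14, ATG10, ATG4C and ATG7 stood at 1.41 to 1.91 FPKM.

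**Figure D1:**
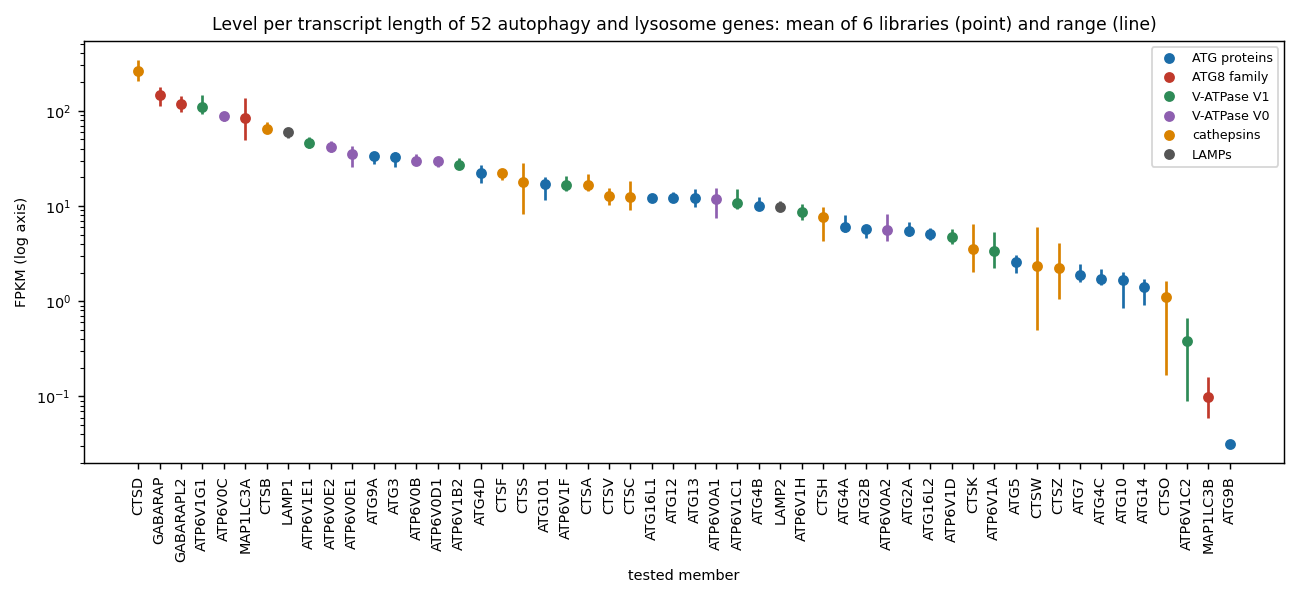
Mean FPKM of the 52 tested members over 6 libraries (points, log axis, coloured by role) with the range over the libraries (lines); ATG9B, listed at 0 in 1 library, has its mean only. CTSD is highest at 260.3 FPKM, and 3 of the 4 ATG8 family rows lie at 84.7 FPKM or above.

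Subunits of the V-ATPase exist as alternative forms, some found in most tissues and others in few. The row of the catalytic V1 subunit ATP6V1A had a mean of 3.35 FPKM and that of its partner ATP6V1B2 27.0 FPKM. TCIRG1, the row of the a3 form of the V0 a subunit, which the rule does not take, had a mean of 4.33 FPKM. Among the listed members, 5 rows of forms known from kidney, bone, testis or nerve held almost no reads. ATP6V1B1 had 0 to 26 reads in a library, ATP6V1E2 0 to 2, ATP6V1G2 2 to 17, ATP6V0D2 0 to 6, and ATP6V0A4 2 reads in 1 library and 0 in the other 5. These 5 rows stayed under the filter, as did the protease CTSE (0 to 24 reads) and LAMP3 (0 to 12 reads), a form known from dendritic cells. A count of 0 allows up to 3 reads, or 0.0632 to 0.0768 CPM on total reads, counting error only.

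The row named MAP1LC3B, an LC3 form described as widely expressed, was listed at 0.06 to 0.16 FPKM, or 7 to 15 reads in a library. A second row whose deposited description names an LC3B-like protein, LOC106825358, had a mean of 0.387 FPKM. How the counting treated reads shared between near-identical copies is not given in the sources used here, so neither value can be read as the level of LC3B. The same holds for ATP6V0C, whose copy-like row LOC106836254 had a mean of 10.7 FPKM.

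Most members of sufficient level varied less than 2-fold between the libraries. How many other genes of that level did so was not computed, so this is not a trait of the set. Of the 43 members with a mean of at least 10 CPM, 38 had a highest library less than 2 times the lowest, and for 21 the ratio was under 1.5. The V1 subunit ATP6V1B2 was the steadiest, at 69.9 to 81.7 CPM (ratio 1.17). The 5 members with a ratio above 2 were MAP1LC3A (3.12), CTSZ (2.92), CTSS (2.62), CTSK (2.49) and ATG101 (2.09).

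High IMF libraries were then set against low IMF libraries, gene by gene. No member passed an adjusted p of 0.05 in edgeR's quasi-likelihood test, where 0% of all genes passed. The smallest adjusted p among the members was 0.517 (ATP6V0A1). At an unadjusted p under 0.05 there were 3 members, or 5.77% of the 52, and 7.27% of all genes reached that level. The 3 were 1 with a negative log2 fold, ATP6V0A1 (1.92% of members, 2.74% of all genes), and 2 with a positive one, CTSC and ATP6V0A2 (3.85% of members, 4.53% of all genes). By the DESeq2 Wald test, which called 194 genes in all (1.16% of those with an adjusted p), 0 members passed. In that test, 2 of 59 members (3.39%) had an unadjusted p under 0.05, and 7.54% of all genes did. The authors' deposited table likewise held 0 members at an adjusted p under 0.05, where 194 of 16858 genes passed. Its smallest member value was 0.13 (ATP6V0A1).

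On the TMM scale, the groups did not overlap for 7 members (13.5%), against 13% of all genes. In 6 of the 7 the high IMF libraries lay below (11.5% of members). Over all genes tested that share was 6.1%. Among the genes with a mean of at least 10 CPM, where all 7 belong, the high IMF libraries lay below for 6 of 43 members. Of all genes at that level, 638 of 8507 (7.5%) did so. The 6 were ATG13, ATP6V0A1, ATP6V0B, CTSA, CTSH and LAMP1, and ATP6V0A2 was the one above (1.92% of members, 6.86% of all genes). Most of these separations depended on the scaling. As a share of total reads, ATP6V0A1 overlapped, with 1894 of 47494157 reads in high IMF replicate 2 and 1815 of 45617163 in low IMF replicate 2. ATG13, ATP6V0B, CTSA and CTSH overlapped by that share as well, and LAMP1 and ATP6V0A2 did not.

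The median log2 fold of high over low IMF was -0.06 over the members and 0.01 over all genes. With TMM it was negative for each role: -0.04 for the ATG proteins, -0.09 for the ATG8 family, -0.02 for V1, -0.05 for V0, -0.10 for the cathepsins and -0.25 for the 2 LAMPs. These signs were not firm. By library size only, every role but the LAMPs had a positive median (0.02 to 0.12). The V1 median was positive under the stricter filter (0.018) and with limma-voom (0.032). The cathepsin median was 0.12 without high IMF replicate 3 and 0.0077 without low IMF replicate 2, and the ATG median 0.00072 without the latter. Of the 52 folds, 32 were below 0 (61.5%, and 48.8% over all genes). Among genes with a mean of at least 10 CPM, 27 of 43 members and 4718 of 8507 genes were below 0, with medians of -0.06 and -0.03. When libraries were scaled by total reads only, 17 of the 52 were below 0. Under that scaling the all-gene median was 0.15 in place of 0.01, and the distance of the members' median from it stayed at -0.07. The 95% interval of the fold lay wholly within 1 log2 unit of 0 for 43 of the 52 members (82.7%, and 54.5% of all genes). For those 43 the interval left out a 2-fold difference between the groups. The other 9 of the 52 were too variable or too low for such a bound. Among genes with a mean of at least 10 CPM, the interval lay within that limit for 40 of 43 members and 6761 of 8507 genes.

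**Figure D2:**
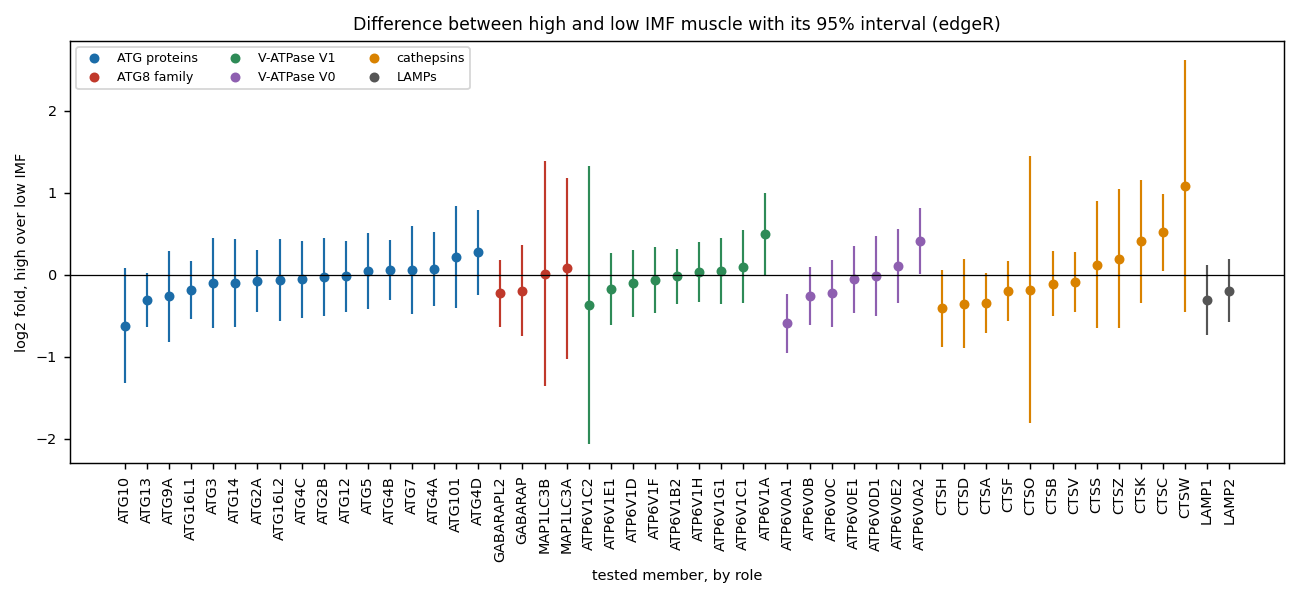
Log2 fold of high over low IMF for the tested members, ordered by fold within each role, with 95% intervals from the edgeR fit; ATG9B (0.57, interval -1.86 to 3.01) is left off for scale. The intervals of ATP6V0A1, ATP6V0A2 and CTSC leave out 0, before any adjustment over all genes, and the others cross it.

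Among the ATG proteins, 18 were listed and tested, and none reached an unadjusted p under 0.05. ATG13, the scaffold of the kinase complex that starts autophagy, measured 46.6, 49.8 and 51.2 CPM in high and 66.2, 58.3 and 58.2 CPM in low IMF muscle. Every high library lay below every low one. The log2 fold was -0.31 ± 0.14 (SE) with an adjusted p of 0.717 in edgeR. ATG10, the enzyme that joins ATG12 to ATG5, had the most negative fold of the role, -0.62 ± 0.30 (adjusted p = 0.74 in edgeR), at 2.72, 3.26 and 1.999 CPM against 3.23, 4.58 and 4.499 CPM. High IMF replicate 2 lay just above low IMF replicate 1, so the groups overlapped.

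ATG16L1 carries the ATG12-ATG5 conjugate to the growing membrane. It measured 38.7, 35.9 and 44.3 CPM in high and 42.3, 49.3 and 43.9 CPM in low IMF muscle, with overlap and a log2 fold of -0.19. ATG4D, a protease that trims ATG8 proteins, measured 31.3, 36.8 and 49.2 CPM against 26.9, 38.4 and 31.8 CPM (log2 fold 0.27). ATG9A, which brings lipid to the sac, measured 103, 121 and 178 CPM in high and 142, 172 and 169 CPM in low IMF muscle. The high libraries of ATG9A spanned the whole range of the low ones, and the fold of -0.26 had an adjusted p of 0.901 in edgeR. For 12 others, among them the core conjugation genes ATG3, ATG5, ATG7 and ATG12 and the lipid transfer genes ATG2A and ATG2B, the log2 fold lay between -0.10 and 0.22 and the smallest p was 0.436. ATG9B had a mean of 0.0317 FPKM, too low for a usable fold.

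All 4 listed ATG8 family rows were tested. GABARAP measured 133, 200.1 and 234 CPM in high and 233, 213 and 203 CPM in low IMF muscle. GABARAPL2 measured 68.9, 48.4 and 62.3 CPM against 73.6, 69.2 and 67.5 CPM. In both, the high libraries were more scattered than the low ones, and 1 of them reached the low values or just passed them. The log2 folds were -0.20 ± 0.24 and -0.23 ± 0.17. MAP1LC3A was the most scattered of the 43 members at 10 CPM or above, at 39.7, 89.9 and 114 CPM in high and 124, 57.1 and 49.7 CPM in low IMF muscle. Its highest and its second lowest values were both low IMF libraries. The log2 fold of 0.08 had an interval of -1.03 to 1.18, and it was negative when high IMF replicate 2 (-0.03) or 3 (-0.25) or low IMF replicate 2 (-0.10) or 3 (-0.16) was left out.

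In the V1 sector, 12 rows were listed and 9 tested. ATP6V1A, the subunit that splits ATP, measured 21.3, 18.7 and 13.1 CPM in high and 12.7, 11.6 and 13.5 CPM in low IMF muscle. High IMF replicate 3 lay within the low range and the other high libraries above it. The log2 fold was 0.49 ± 0.22 (adjusted p = 0.701 in edgeR). The stalk subunit ATP6V1E1 measured 47.5, 56.97 and 72.9 CPM against 69.6, 65.1 and 65.2 CPM, and ATP6V1D, of the central rotor, 11.2, 13.0 and 12.1 CPM against 14.7, 12.3 and 11.9 CPM. Both overlapped, with log2 folds of -0.17 and -0.10; that of ATP6V1D was 0.03 with library size only. ATP6V1G1 measured 139, 104 and 120.4 CPM against 126, 111 and 115 CPM (log2 fold 0.04). ATP6V1C2 stayed at or below 1.17 CPM in every library. The remaining 4, ATP6V1B2, ATP6V1C1, ATP6V1F and ATP6V1H, had log2 folds of -0.06 to 0.10 and a smallest p of 0.626.

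The V0 sector had 9 rows, 7 of them tested, and held 2 of the 3 members at an unadjusted p under 0.05. Both encode forms of the large a subunit, which contacts the proton-carrying ring and helps place the pump in a given membrane. ATP6V0A1 measured 31.97, 35.5 and 28.2 CPM in high and 50.4, 44.0 and 50.02 CPM in low IMF muscle. On the TMM scale the gap between the groups exceeded the range within either, whereas by total reads the groups overlapped. The means were 31.9 ± 3.64 and 48.1 ± 3.59 CPM (SD, n = 3 each), 1.51-fold higher in low IMF muscle. Its log2 fold of -0.59 ± 0.15 had an unadjusted p of 0.00573 and an adjusted p of 0.517 in edgeR, so it did not pass.

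ATP6V0A2, the form known from the Golgi and endosomes, measured 27.1, 38.7 and 33.7 CPM in high and 23.7, 24.8 and 26.4 CPM in low IMF muscle. High IMF replicate 1 was only slightly above the highest low library. The log2 fold was 0.41 ± 0.17, with an unadjusted p of 0.048 and an adjusted p of 0.681 in edgeR. ATP6V0B, another ring subunit, measured 28.8, 24.5 and 31.4 CPM against 34.6, 33.9 and 33.02 CPM, without overlap and with a log2 fold of -0.26. ATP6V0C, the main ring subunit, measured 54.6, 45.8 and 63.2 CPM against 56.9, 69.9 and 64.2 CPM. ATP6V0E2 measured 81.7, 87.3 and 121 CPM against 87.02, 94.5 and 87.6 CPM. These last 2 overlapped (log2 folds -0.22 and 0.11; that of ATP6V0E2 was -0.09 without high IMF replicate 3), as did ATP6V0E1 and ATP6V0D1 (-0.05 and -0.02).

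**Figure D3:**
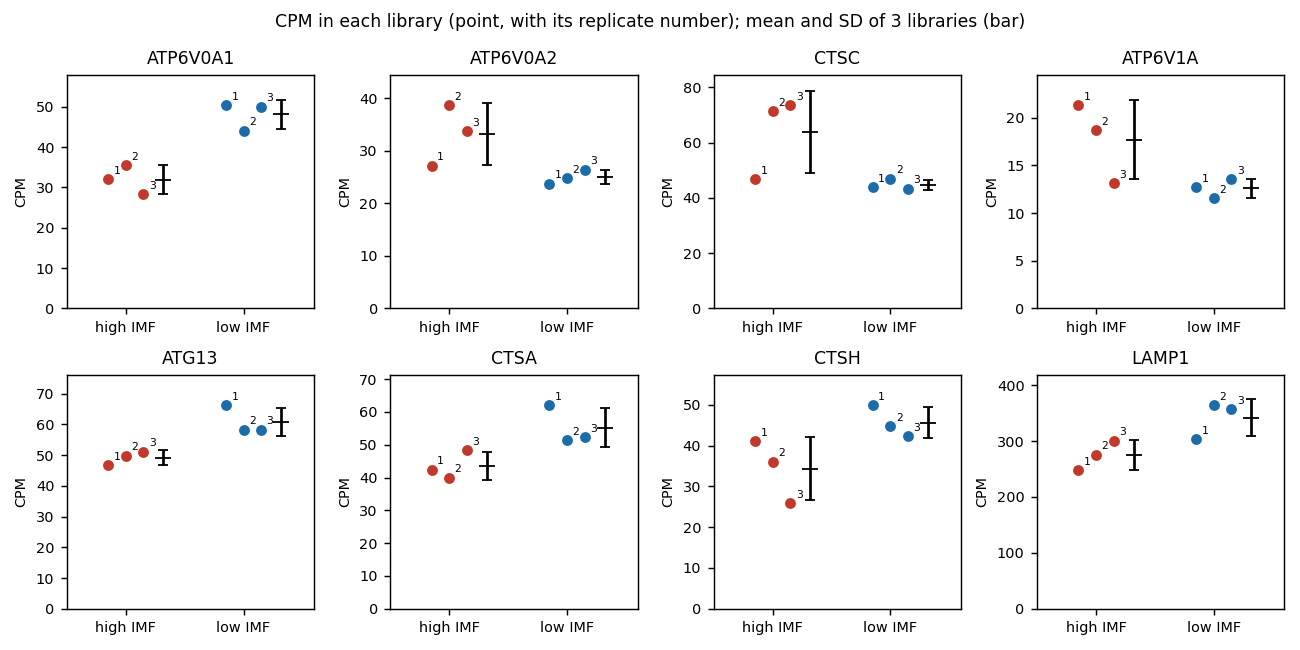
CPM of 8 members in each library (points, numbered by replicate) with the mean and SD of 3 libraries (black bars); all axes start at 0. On this TMM scale, ATP6V0A1, ATG13, CTSA, CTSH and LAMP1 have all high IMF libraries below all low IMF libraries, ATP6V0A2 has them above, and CTSC and ATP6V1A overlap.

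Of 13 cathepsins, 12 were tested. CTSC, a protease that activates granule enzymes of immune cells, measured 46.8, 71.3 and 73.6 CPM in high and 43.8, 47.0 and 43.4 CPM in low IMF muscle. High IMF replicates 2 and 3 stood apart and replicate 1 lay within the low range. The log2 fold was 0.52 ± 0.20, with an unadjusted p of 0.036 and an adjusted p of 0.642 in edgeR. The myeloid markers had median levels (log2, against the mean of 6 libraries) of 1.14, 0.42 and -0.71 in high and -0.39, -0.38 and -0.39 in low IMF libraries. Those of the lymphocyte markers were 0.98, 0.21 and 0.28 against 0.25, -0.74 and -0.73. The part of these cell types in the CTSC values was not tested.

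CTSD, the protease with the highest level of all members, measured 425, 354 and 554 CPM in high and 637, 542 and 523 CPM in low IMF muscle, a log2 fold of -0.35 ± 0.23 with high IMF replicate 3 inside the low range. CTSA, which also protects other lysosomal enzymes from breakdown, measured 42.4, 39.9 and 48.3 CPM against 62.0, 51.4 and 52.3 CPM. CTSH, an aminopeptidase, measured 41.01, 36.02 and 25.9 CPM against 49.8, 44.7 and 42.3 CPM. For CTSA and CTSH every high library lay below every low one, with log2 folds of -0.34 ± 0.16 and -0.41 ± 0.20 and adjusted p-values of 0.719 and 0.742 in edgeR. CTSB, CTSF and CTSV had log2 folds of -0.11, -0.20 and -0.09, and CTSO, at 0.26 to 2.06 CPM, -0.18.

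CTSS, CTSZ, CTSK and CTSW are known chiefly from cells other than muscle fibres; the first 3 were singled out after their values were seen. CTSZ measured 23.1, 14.6 and 7.91 CPM in high and 12.3, 14.6 and 13.01 CPM in low IMF muscle, and CTSS, which cuts antigen in macrophages, 42.6, 34.9 and 16.3 CPM against 31.6, 28.1 and 26.6 CPM. In both, high IMF replicate 1 was the highest and replicate 3 the lowest of the 6 libraries. The 13 myeloid markers summed to 335, 165 and 70.04 CPM in high IMF libraries, against 96.3 to 99.8 CPM in low IMF libraries, with none at 0, the same 2 libraries being highest and lowest. Of these 13, 4 were above at an unadjusted p under 0.05 and 0 below, where all genes gave 4.53% above and 2.74% below. Without high IMF replicate 1 the log2 folds of CTSS and CTSZ turned from 0.12 and 0.20 to -0.18 and -0.24.

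CTSK, a collagen-cutting protease of fibroblasts and osteoclasts, measured 15.6, 25.4 and 10.2 CPM in high and 12.6, 12.1 and 13.9 CPM in low IMF muscle. The log2 fold, 0.41, became -0.01 when high IMF replicate 2 was left out. The 10 fibroblast markers summed to 1694, 1402 and 309 CPM in high IMF libraries, against 364 to 885 CPM in low IMF libraries, with none at 0. At an unadjusted p under 0.05, 2 of the 10 were above, where all genes gave 4.53%. CTSW, of cytotoxic lymphocytes, measured 7.05, 3.002 and 2.202 CPM against 3.52, 0.752 and 1.51 CPM, and its log2 fold of 1.08 had an interval of -0.46 to 2.62. Leaving out high IMF replicate 1 gave 0.42, and leaving out low IMF replicate 1 or 2 gave 1.84 or 0.69. The lymphocyte markers (14 listed, 13 of them tested, and CD5 at 0 in low IMF replicate 2) summed to 34.4, 23.6 and 19.8 CPM in high IMF libraries, against 18.8, 5.29 and 5.35 CPM in low IMF libraries. Of the 13, 4 were above at an unadjusted p under 0.05, where all genes gave 4.53%. The part of these cell types in the cathepsin values was not tested.

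**Figure D4:**
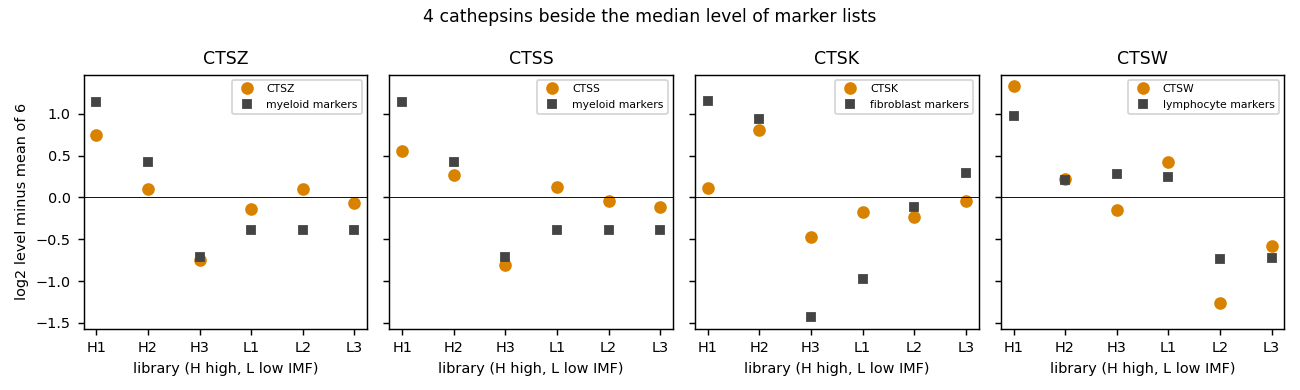
Log2(CPM + 0.5) of CTSZ, CTSS, CTSK and CTSW minus the gene's mean over 6 libraries (circles) beside the median of the same quantity over a marker list (squares), in each library (H1 to H3 high IMF, L1 to L3 low IMF). CTSZ and CTSS are highest in H1 and lowest in H3, as are the myeloid markers.

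Both tested LAMPs had negative folds. LAMP1, the most abundant lysosomal membrane protein of most cells together with LAMP2, measured 248, 276 and 301 CPM in high and 303, 364 and 357 CPM in low IMF muscle. The groups were separated by the narrow step between high IMF replicate 3 and low IMF replicate 1. LAMP2, needed for autophagosome fusion in muscle, measured 94.9, 89.7 and 114 CPM against 122, 107 and 114 CPM, with overlap. The log2 folds were -0.31 ± 0.18 (adjusted p = 0.814 in edgeR) and -0.20 ± 0.16.

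On the TMM scale, the members as a group were lowest in high IMF replicates 1 and 2. Those 2 libraries had the largest TMM factors (1.16 and 1.12, against 0.88 to 1.04 in the others). Of all assigned reads, the members took 0.302% and 0.300% there. Their share was 0.283% in high IMF replicate 3, and 0.328%, 0.285% and 0.286% in the low IMF libraries. All levels below rest on the TMM scale. A group's level was taken per library as the median, across its tested genes, of log2(CPM + 0.5) less the gene's 6-library mean. Over the 52 members it was -0.12, -0.06 and 0.04 in high IMF libraries, against -0.01, 0.10 and 0.05 in low IMF libraries, which put high IMF replicate 3 within the low range. The fibre markers had levels of -0.66, -0.18 and 0.31 in high IMF libraries, against 0.22, 0.30 and 0.23 in low IMF libraries, lowest in the same 2 libraries. The endothelial markers had levels of 0.15, -0.16 and -0.68 in high and 0.40, 0.20 and 0.16 in low IMF muscle, every high library below every low one. Of the 10, 9 had negative folds, 3 of them at an unadjusted p under 0.05, where all genes gave 2.74%. The part of fibre and endothelial content in the members' values was not tested. The ATG proteins (-0.14, -0.07 and 0.15 against -0.03, 0.10 and 0.07) and V0 (-0.10, -0.10 and 0.11 against -0.04, 0.13 and 0.10) were likewise lowest in those 2 libraries, as were the ATG8 family and the LAMPs. V1 was not (-0.16, 0.06 and 0.02 against 0.0064, 0.06 and -0.05), nor were the cathepsins (0.06, 0.12 and -0.13 against 0.04, 0.09 and 0.02).

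**Figure D5:**
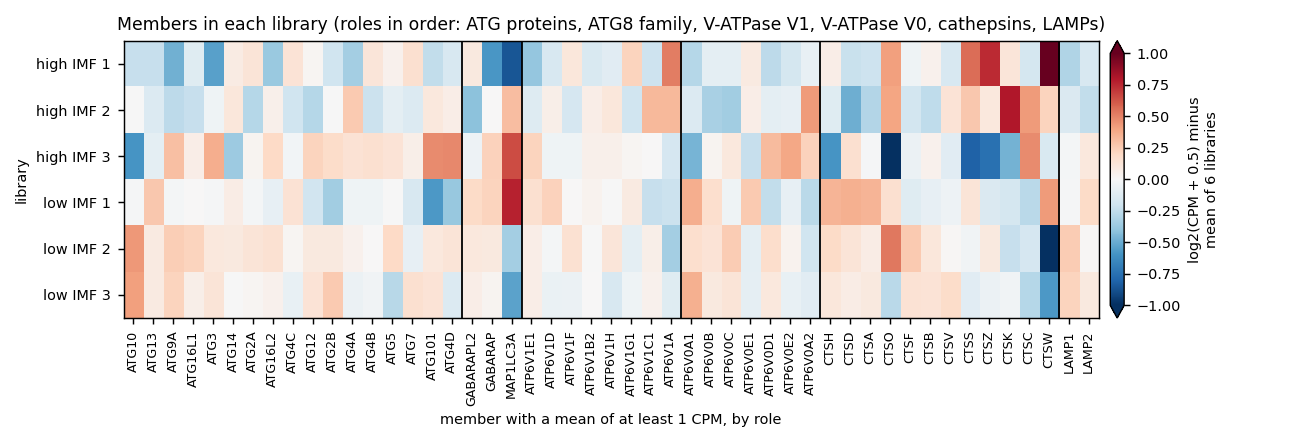
Log2(CPM + 0.5) minus the mean of 6 libraries for the members with a mean of at least 1 CPM (columns, by role and then by difference between groups) in each library (rows); colours are capped at -1 and 1. Among the high IMF libraries, High IMF 3 is lowest in CTSS, CTSZ, CTSK and CTSO and highest in ATG9A, ATG3 and ATP6V0D1.

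Leaving out high IMF replicate 3 raised the members at an unadjusted p under 0.05 from 3 to 9 (17.3% of 52, with 12.5% of all genes in that fit). The 6 with negative folds were ATG13, ATG9A, ATP6V0A1, ATP6V0B, CTSA and CTSD, and the 3 with positive folds were ATP6V1A, CTSK and CTSS. Of all 16405 genes in that fit, 890 had negative and 1155 positive folds at that level. The smallest adjusted p was then 0.259 in edgeR, so none passed. The number was 1, ATP6V0A1, with high IMF replicate 2 (5.64% of all genes), low IMF replicate 2 (4.32%) or low IMF replicate 3 (4.6%) left out, and with low IMF replicates 2 and 3 summed (4.26%). It was 4 with high IMF replicate 1 (8.3% of all genes) and 3 with low IMF replicate 1 (9.11%) left out. With all libraries it was 3 by library size only (7.53% of all genes) and under a stricter filter (7.24%). It was 2 with DESeq2 size factors (7.3%) and with limma-voom (6.97%), and 4 with a replicate block (7.45%). With no low-count filter (6.68%) and by the DESeq2 Wald test (7.54%), where all 59 members entered, it was also 2. ATP6V0A1 was among them whichever library was left out. ATP6V0A2 and CTSC kept that level without high IMF replicate 1 and lost it without each of the other 5 libraries, and the log2 fold of ATP6V0A2 was 0.27 without high IMF replicate 2. By library size only, 84.8% of all genes at that level had positive folds, against 62.3% with TMM.

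Other genes of the pathway were read from 6 lists (initiation, cargo receptors, fusion, control, lysosomal hydrolases and lysosomal membrane) with 153 tested genes. At an unadjusted p under 0.05 there were 7 with positive and 6 with negative folds, 8.5% together where all genes gave 7.27%, and none passed the adjustment in edgeR. The median log2 fold was -0.07. By list, the counts above and below were 1 and 0 of 21 for initiation, 0 and 1 of 19 for receptors, 1 and 1 of 20 for fusion, 2 and 2 of 30 for control, 1 and 1 of 38 for hydrolases, and 2 and 1 of 25 for membrane.

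The control list held the 2 smallest p-values of these lists, both in sestrins, stress-induced inhibitors of the growth kinase mTORC1. SESN1 measured 108, 128 and 101 CPM in high and 272, 219 and 209 CPM in low IMF muscle (log2 fold -1.05 ± 0.19), and SESN3 28.7, 28.5 and 12.4 CPM against 11.3, 13.9 and 15.4 CPM (0.78 ± 0.33). SESN2 lay 6.25 to 7.75 CPM against 2.55 to 2.97 CPM, so SESN1 and SESN2 were separated in opposite directions. In edgeR the adjusted p was 0.431 for SESN1 and 0.374 for SESN2; the DESeq2 Wald test passed both (0.00065 and 0.000231) and not SESN3 (0.484). FOXO1, a transcription factor that switches on autophagy genes in wasting muscle, measured 19.8, 24.5 and 22.9 CPM in high and 32.1, 29.99 and 30.2 CPM in low IMF muscle (log2 fold -0.46 ± 0.15, adjusted p = 0.568 in edgeR).

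Elsewhere in these lists, VPS33A, which drives fusion of the sac with the lysosome, measured 21.4, 16.5 and 16.8 CPM against 26.4, 30.2 and 30.4 CPM (log2 fold -0.67). The lysosomal calcium channel MCOLN1 measured 26.1, 23.3 and 28.5 CPM against 34.7, 39.6 and 35.99 CPM (-0.50), and the mitochondrial cargo receptor BNIP3 84.9, 86.0 and 111 CPM against 118, 138 and 142 CPM (-0.50). Each of the 3 had its high libraries below its low ones. CPVL, a serine carboxypeptidase, had a log2 fold of -0.42. On the other side were VMP1, a lipid scramblase of early autophagy (0.51), GNPTAB, which tags enzymes for the lysosome (0.53), RAB7B (1.32), and ACP5 (2.21) and LAPTM5 (0.97), lysosomal genes known from myeloid or lymphoid cells. LAPTM5 measured 53.1, 28.5 and 24.4 CPM against 24.0, 15.4 and 14.8 CPM. It was highest in high IMF replicate 1, as were both the myeloid and the lymphocyte markers. In high IMF replicate 3, where the myeloid markers were lowest, LAPTM5 was still above every low IMF library. The part of these cell types in the LAPTM5 values was not tested. Without high IMF replicate 1, the fold of ACP5 was 1.17 (edgeR, unadjusted p = 0.135) and that of LAPTM5 0.54 (0.0793). SESN1, SESN2, FOXO1 and VPS33A stayed at an unadjusted p under 0.05 whichever of the 6 libraries was left out, and MCOLN1 did except without low IMF replicate 2. The others named from these lists lost that level in at least 3 of the 6 cases.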

How the data were processed

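Read counts per gene (whole numbers) were deposited by the authors for 6 libraries; the submitters' processing notes name HISAT2 and the mouse build mm9, while the gene descriptions in the table are mostly of donkey and horse, so the build behind the counts is not settled and no coordinates or sequences are given. No source used here gives the counter or its strand setting. FPKM, as deposited, served to compare levels between genes and entered no test. The authors' own comparison (a fold ratio, log2 fold and p-values, as deposited) is quoted by name where it appears. Of 125238 counts held in both the single-library files and the joint table, 0 differed.

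Counts were fitted with edgeR 4.0.16 (R 4.3.3; quasi-likelihood F-test, two-sided, TMM, filterByExpr defaults, Benjamini-Hochberg over all 15933 genes). The SE is the log2 fold over the root of the F statistic. DESeq2 1.42.0 and limma-voom (limma 3.58.1) were alternatives. The script was tested on simulated counts. In each role the members of highest mean CPM and FPKM, up to 4 of smallest p and all with an unadjusted p under 0.05 or separate groups are given by library, and up to 2 genes per direction from each pathway list. Members and lists were chosen with earlier results of these data known. Names that the rule leaves out are not reported here. Library pairs were compared over genes with at least 20 reads.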

Additional observations from a re-analysis of the deposited data

How the results depend on the processing

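No member passed an adjusted p of 0.05 under any of the 14 alternatives. Over all genes the number that passed was 194 with the DESeq2 Wald test, and 0 to 3 when a library was left out. The members at an unadjusted p under 0.05 numbered 3 and ranged from 1 to 9 when a library was left out (0 to 3 with positive and 1 to 6 with negative folds); with low IMF replicates 2 and 3 summed there were 1 in all and 0 positive. The positive count of 2 was 1 with DESeq2 size factors, with no low-count filter, with the DESeq2 Wald test and with limma-voom. With library size only there were 3 positive and 0 negative; ATP6V0A1 kept its sign there (-0.44) with a p of 0.0834, and its log2 fold ranged from -0.69 to -0.44 over all alternatives. With the replicate number as a block the negative count was 2 and the total 4, and no member passed; the deviations of same-numbered libraries correlated at 0.23, 0.20 and 0.04, so the numbers were not taken to pair the libraries, and high IMF replicate 2 correlated best with low IMF replicate 3 (0.25).

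Of 586 recomputed folds of 42 named genes, 20 changed sign, and of the genes concerned none passed the test in any setting. MAP1LC3A was -0.03, -0.25, -0.10 and -0.16 without high IMF replicates 2 and 3 and low IMF replicates 2 and 3 (range up to 0.59), and -0.13 with the summed libraries. MAP1LC3B was -0.10 with limma-voom, -0.041 with the replicate block, -0.0057 summed, and -0.32, -0.05 and -0.11 without high IMF replicates 1 and 3 and low IMF replicate 2 (range up to 0.30). ATP6V1G1 was -0.086 and -0.0011 without high IMF replicate 1 and low IMF replicate 2 (up to 0.13 with another library left out, and 0.18 with library size only), ATP6V1C2 0.10 with limma-voom and 0.16 without low IMF replicate 3 (range from -0.87), ATP6V1D 0.030 with library size only, and ATP6V0E2 -0.091 without high IMF replicate 3. CTSS and CTSZ were -0.18 and -0.24 without high IMF replicate 1 (ranges up to 0.43 and 0.50), and CTSK -0.014 without high IMF replicate 2 (range up to 0.66). Of 112 recomputed medians over roles, members or all genes, 13 moved by more than the spread between replicates: 7 with library size only, where the members' median was 0.08, and 6 with a library left out. The cause of these changes was not tested. Depth limits ATG9B, MAP1LC3B and ATP6V1C2, the 3 tested members with a mean below 1 CPM.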

Other observations

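The a subunit of the V-ATPase is encoded by separate genes, and the 2 rows at an unadjusted p under 0.05 lay on opposite sides. The ratio of ATP6V0A1 to ATP6V0A2 CPM was 1.18, 0.919 and 0.837 in high and 2.13, 1.77 and 1.90 in low IMF muscle (0.978 ± 0.179 and 1.93 ± 0.179, SD, n = 3 each). The ratio was formed after both values were seen, so it carries no test, and CPM does not correct for transcript length. TCIRG1, the row of the a3 form, measured 10.3, 10.5 and 12.7 CPM in high and 11.4, 9.46 and 9.29 CPM in low IMF muscle (log2 fold 0.15 ± 0.19). The accessory subunits ATP6AP1 and ATP6AP2 had log2 folds of -0.04 ± 0.16 and 0.01 ± 0.17, each with overlapping groups.

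CTSS and CTSK are adjacent protein-coding genes in the RefSeq gene table of the donkey assembly EquAss-T2T_v2, the only such pair among the members matched there (57 of 59). Both were lowest in high IMF replicate 3. Their highest libraries differed: high IMF replicate 1 for CTSS (42.6 CPM) and high IMF replicate 2 for CTSK (25.4 CPM).

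The GO terms deposited with the genes name the lysosome for 22 of the 59 members and the autophagosome for 15. The median log2 fold was 0.01 over the 21 tested members with a lysosome term, 10 of them negative, and -0.02 over the 15 with an autophagosome term, 8 of them negative.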
